A study of Mus musculus with 12 samples.

Results

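The transcriptome described here is that of mouse retina 1 day after optic nerve crush with phosphate-buffered saline (PBS), read from 3 libraries of 12 in the whole series. The libraries were chosen by group alone: they are the 3 that stand for crush plus PBS among 6 retina libraries, and no measured value entered the choice. The labels give the genotype as WT, the treatment as ONC+PBS, where ONC is the crush, the time as Day 1 and the material as retina cells. They give no strain, age or sex and do not say whether a library is 1 animal, 1 eye or a pool, so the spread between libraries may be technical. No uncrushed retina and no other time is among the 3 libraries. Levels of injury genes therefore have no reference here, and no treatment is compared. The column names of the deposited table were matched to this group by inference from a short name, and libraries are numbered by column.

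The retina turns light into nerve signals in rods and cones, passes them through bipolar cells, shapes them with horizontal and amacrine cells, and sends them to the brain along the axons of ganglion cells. Müller glia span its depth, and microglia, astrocytes and vessels share the tissue. Crush of the optic nerve damages ganglion cell axons outside the retina, and stress kinases, transcription factors such as Atf3 and Jun, and glial and immune responses are the parts of the reaction best known from earlier work. In mouse retina, rods are by far the most numerous neurons and ganglion cells are few.

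Library totals were 15580024, 16014289 and 16264189 counts in libraries 1, 2 and 3. Levels are in CPM, the counts of a gene relative to the scaled size of its library, and levels of different genes are compared only per kilobase of exon. In library 1, 2 or 3, a count of 3 came to 0.199, 0.184 or 0.182 CPM. Of 32285 genes, 13505 (41.8%) were at or above 1 CPM in all 3 libraries, among them 12716 protein-coding genes and 787 long noncoding RNA genes, and 10934 had no count in any. The 13 mitochondrially encoded genes listed had no count. Between libraries, the median gene with a mean of at least 5 CPM had a coefficient of variation of 10.97% and a highest library 1.23 times its lowest, and 498 of 11151 such genes (4.47%) had a highest library at least 2 times the lowest. The common biological coefficient of variation was 0.196 over 14250 genes. All values are mean ± SD of 3 libraries unless said otherwise. Xist, the transcript of the inactive X chromosome, stood at 645, 601 and 450.3 CPM, and the Y-linked genes Ddx3y, Eif2s3y, Kdm5d and Uty had no count in any library.

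Library 1 stood apart from libraries 2 and 3 in a property of all genes. In genes with a mean of at least 5 CPM, grouped into 10 bins by the GC content of their transcripts, its median log2 ratio to the mean of the 3 libraries went from 0.18 in the lowest bin to -0.23 in the highest. Pearson's r of that ratio with GC content was -0.49 across 11144 genes, which are not independent replicates. Libraries 2 and 3 went the other way in the same bins, from -0.11 to 0.11 and from -0.09 to 0.10, as they must when 1 of 3 libraries departs from a shared mean. Of all genes at that level, 42.5% were highest in library 1 and 38% were lowest in it. For the main results that rest on library 1, the level after subtracting each library's median of the gene's GC bin on the log2 scale is given as the GC-adjusted level. With that adjustment, 333 genes (2.99%) had a highest library at least 2 times the lowest, and 36.4% of all genes at that level were lowest in library 1. Against these shares, 0 or 1 gene past 2-fold in a list of the sizes used here is near the background and does not set the list apart.

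**Figure D1:**
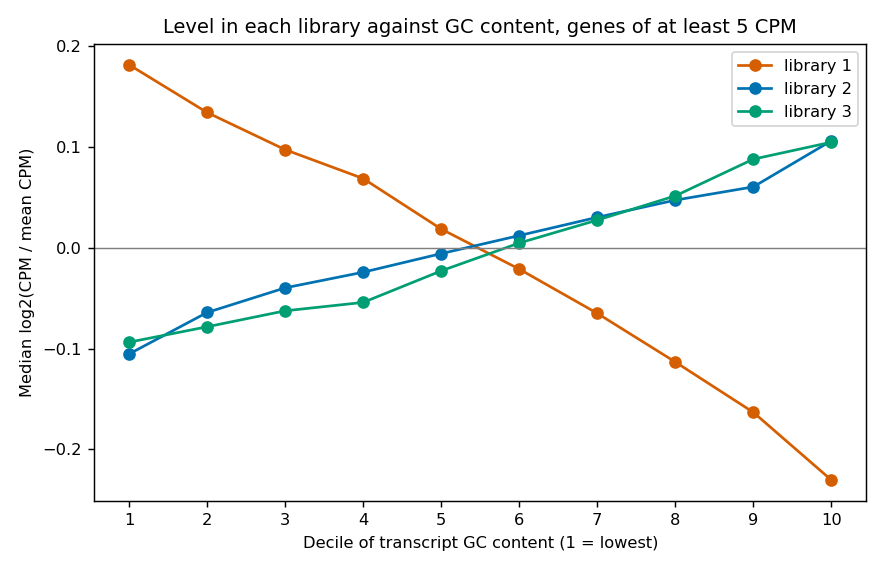
Median log2 ratio of each library's CPM to the mean CPM of the 3 libraries (y axis) in each of 10 bins of genes by transcript GC content (x axis, 1 = lowest), for genes with a mean of at least 5 CPM. Library 1 runs from 0.18 down to -0.23, while libraries 2 and 3 run upward and stay within 0.11 of 0.

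Genes of other tissues of the eye differed most between libraries by the sum of their list, and are given before the retinal classes. Lens genes encode the crystallins and membrane proteins of lens fibres. Their summed level was 7969, 869 and 759 CPM in libraries 1, 2 and 3. Of 21 lens genes, the 17 with a mean of at least 5 CPM were all past 2-fold and highest in library 1. Of all genes at that level, 4.47% were past 2-fold and 42.5% highest in library 1. Cryaa, alpha-crystallin A, was at 2941, 252 and 208 CPM, and Crybb2, a beta-crystallin, at 1255, 145 and 132 CPM. Cryab, which heat shock also induces and which other tissues make, was at 752, 141 and 122 CPM. Lens genes thus stood about 10 times higher in library 1 than in the other two, and without library 1 the mean of the summed level was 827 CPM. Lgsn, or lengsin, a lens protein outside the list, was at 58.6, 5.71 and 4.24 CPM, and Grifin, a lens galectin, at 19.9, 1.96 and 2.91 CPM. Both were highest in library 1. They are among the 20 genes outside the lists named for the largest ratio between libraries, so they add no separate support.

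Retinal pigment epithelium, the pigmented layer behind the photoreceptors that regenerates visual chromophore, went in another order. Its summed level was 665, 1294 and 2627 CPM, with 15 of 17 genes past 2-fold, against 4.47% of all genes. Of the 17, 16 were lowest in library 1 and 12 highest in library 3, against 38% and 29.5% of all genes. Without library 3 the mean of the sum was 972 CPM. Rpe65, the isomerase of the visual cycle, was at 29.8, 66.7 and 196 CPM. Lrat, which makes its substrate, was at 9.93, 23.9 and 63.97 CPM, and Rdh5, a retinol dehydrogenase of the same cycle, at 25.5, 56.3 and 134 CPM. For these 3 genes, library 3 was highest and library 2 lay between. The pigment genes did not share 1 order. Library 2 was above library 3 for Dct, a melanin enzyme, at 34.9, 106 and 91.98 CPM, for Tyrp1, another, at 12.7, 46.8 and 31.2 CPM, and for the melanosome proteins Mlana, at 2.18, 14.4 and 8.19 CPM, and Pmel, at 14.2, 33.8 and 31.5 CPM. Tyr, tyrosinase, the first enzyme of melanin synthesis, had library 3 highest, at 6.16, 17.2 and 24.3 CPM. Melanocytes of the choroid also make these 5 transcripts. Krt18, a keratin of simple epithelia, was at 142, 113 and 124 CPM, highest in library 1.

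Keratins of surface epithelium were high in library 3. The list of cornea, conjunctiva and muscle genes summed to 47.98, 23.6 and 456 CPM. Of its 6 genes at 5 CPM or more, 5 were past 2-fold, all 5 highest in library 3. Of all genes at that level, 4.47% were past 2-fold and 29.5% highest in library 3. Krt14, a keratin of basal epithelial cells, was at 8.74, 0.675 and 174 CPM, and its partner Krt5 at 9.93, 2.64 and 149.5 CPM. Krt12, the cornea's own keratin, was at 6.88, 3.93 and 26.4 CPM. Of the 20 genes outside the lists with the largest ratio between libraries, Krt17, Krt4, Krt19, Krt16, Krt6a, Krt6b and Krt13 are keratins, and each was highest in library 3. Krt6a stood at 5.49, 1.96 and 83.7 CPM and Krt13, a keratin of mucosal epithelium, at 6.29, 8.11 and 87.7 CPM. Muscle genes of the list were low, with Ckm, muscle creatine kinase, at 0.529, 0.491 and 0.485 CPM. Without library 3, the mean of the summed level was 35.6 CPM.

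**Figure D2:**
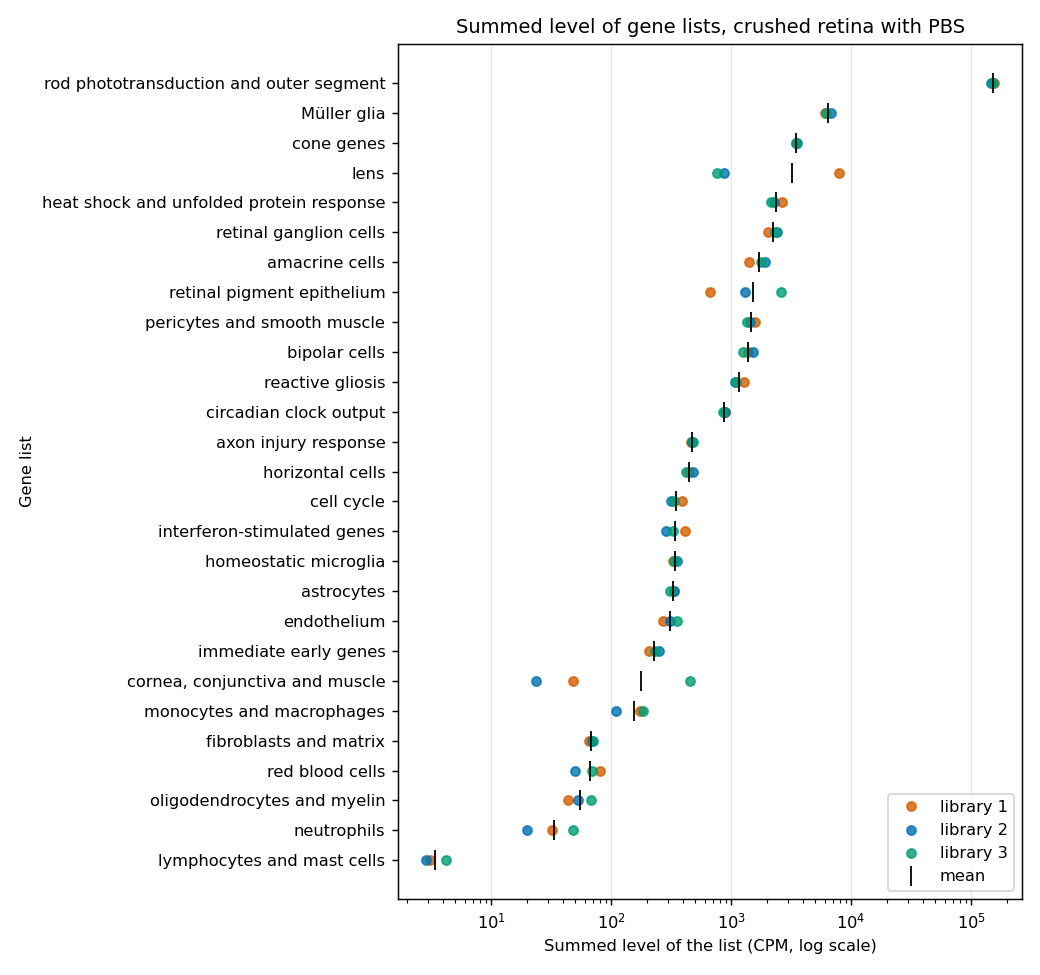
Summed CPM of each gene list (x axis, log scale) in libraries 1 (orange), 2 (blue) and 3 (green), with the mean as a black bar. The lists differ in number and length of genes, so only the distance between points of 1 row can be read: it is widest for cornea, conjunctiva and muscle genes, for lens genes and for pigment epithelium genes.

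Genes of the rod list took a large share of each library and varied little. Some of them, such as Gnb1 and Crx, are also made by other cells, so the share is not of rods alone. The 24 rod genes, from transduction to transcription factors, took 15.06%, 14.98% and 15.35% of the counts of libraries 1, 2 and 3, and none was past 2-fold, against 4.47% of all genes, or 1, Gngt1, GC-adjusted. Their summed level was 151320 ± 3958 CPM, and the mean was 151665 CPM without library 1. The 10 most abundant genes of each library, of all classes, took between 14.3% and 14.5%.

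Rod transduction runs through transducin to phosphodiesterase, which closes a cyclic nucleotide-gated channel. Gnat1, the rod transducin alpha subunit, was at 19932, 17611 and 18699 CPM. Gngt1, its gamma subunit, was at 3127, 4088 and 5248 CPM and had the widest spread of the rod genes, 1.68 times between libraries 3 and 1. Its transcript has a GC content of 36.4%, and GC-adjusted the ratio was 2.03. The phosphodiesterase genes were steadier: the catalytic subunits Pde6a and Pde6b were at 2427, 2206 and 2384 CPM and 3937, 3674 and 3742 CPM, and the inhibitory subunit Pde6g at 5979, 5983 and 6162 CPM. Cnga1, the channel's alpha subunit, was at 2512, 2023 and 2285 CPM, and Cngb1, its beta subunit, at 507, 517 and 563 CPM. Per kilobase, Cnga1 was at 359 ± 38.7 and Cngb1 at 56.5 ± 3.17 CPM.

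Further rod genes end the light response. Sag, rod arrestin, which ends the signal to transducin, was at 12572, 11530 and 12717 CPM. Grk1, the kinase that acts before arrestin, was at 837, 774 and 767 CPM, and Rgs9, which speeds transducin's shutdown, at 160.3, 152 and 144 CPM. Pdc, phosducin, which binds transducin's beta and gamma subunits, was at 10285, 8797 and 9564 CPM. Guca1a, a calcium sensor for the cyclase that restores cGMP, was at 2406, 2417 and 2601 CPM. Gucy2e, that cyclase, was at 262, 245 and 265 CPM. Per kilobase, the sensor Guca1a stood at 2835 ± 126 CPM and the cyclase Gucy2e at 28 ± 1.15 CPM.

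Structural and regulatory rod genes covered a wide range. Prph2, a tetraspanin that shapes disc rims, was at 9608, 9612 and 8762 CPM, and its partner Rom1 at 2005, 2153 and 2329 CPM. Per kilobase these 2 stood at 3107 ± 163 and 1426 ± 107 CPM, a gap larger than their spread. Of the rod transcription factors, Nrl, which sets rod over cone fate, was at 2228, 2253 and 2281 CPM. Crx, a homeobox factor of both photoreceptor types, was at 1231, 1123 and 1041 CPM, and Nr2e3, which represses cone genes in rods, at 485, 433 and 464 CPM. As deposited, the spread of Nrl, 1.02 times between its highest and lowest library, was the narrowest of the rod genes. GC-adjusted, that of Nrl was 1.11 times, and Gnb1 had the narrowest, 1.05 times.

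Promoter sequences are shown for 3 rod genes and 1 cone gene, because Crx and its relatives bind a short homeobox motif, TAATCC, in many photoreceptor promoters. The windows come from RefSeq (build GRCm38.p6), from 250 bases before to 50 bases after the gene's start, 300 bases each, and run 5′ to 3′ on the gene's strand. Capitals mark TAATCC on either strand, here always as its reverse complement GGATTA. The Sag window is chr1:87803430-87803729 on the plus strand, the Guca1a window chr17:47400557-47400856 on the minus strand, the Gngt1 window chr6:3993758-3994057 on the plus strand and the Gnat2 window chr3:108092816-108093115 on the plus strand.
Sag: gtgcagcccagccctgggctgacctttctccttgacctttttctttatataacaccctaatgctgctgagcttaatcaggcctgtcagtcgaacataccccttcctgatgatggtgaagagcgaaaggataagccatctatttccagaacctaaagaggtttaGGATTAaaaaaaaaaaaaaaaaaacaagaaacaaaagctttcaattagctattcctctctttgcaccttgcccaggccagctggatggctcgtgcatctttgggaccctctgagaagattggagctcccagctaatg
Guca1a: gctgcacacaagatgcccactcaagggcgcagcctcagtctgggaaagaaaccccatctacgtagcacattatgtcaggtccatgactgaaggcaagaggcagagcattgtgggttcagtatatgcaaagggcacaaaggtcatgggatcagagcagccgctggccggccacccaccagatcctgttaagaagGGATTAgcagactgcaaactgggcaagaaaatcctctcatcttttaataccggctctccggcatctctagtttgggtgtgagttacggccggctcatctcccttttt
Gngt1: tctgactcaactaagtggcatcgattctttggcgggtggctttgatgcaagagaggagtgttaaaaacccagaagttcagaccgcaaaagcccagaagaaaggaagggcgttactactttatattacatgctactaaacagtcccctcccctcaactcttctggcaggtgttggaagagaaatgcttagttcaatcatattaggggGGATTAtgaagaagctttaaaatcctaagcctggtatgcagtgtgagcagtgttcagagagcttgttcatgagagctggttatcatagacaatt
Gnat2: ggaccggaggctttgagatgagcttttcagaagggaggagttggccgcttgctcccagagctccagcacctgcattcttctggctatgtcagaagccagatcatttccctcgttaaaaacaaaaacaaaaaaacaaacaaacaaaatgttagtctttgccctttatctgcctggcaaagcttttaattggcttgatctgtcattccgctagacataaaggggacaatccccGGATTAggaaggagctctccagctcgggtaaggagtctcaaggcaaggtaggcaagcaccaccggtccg
The motif begins 87, 57, 44 and 19 bases before the start in Sag, Guca1a, Gngt1 and Gnat2. Of 17 rod promoters found in the table, 7 (41.2%) held TAATCC, against 7.06% of 32851 promoters of all genes. Those 7 belong to Cnga1, Cngb1, Crx, Gngt1, Guca1a, Gucy2e and Sag. Of 19 cone promoters, from 11 genes, 2 (10.5%) held it. The excess was not particular to rod genes. Of 20 pigment epithelium promoters, from 15 genes, 6 (30%) held TAATCC, and of 24 bipolar cell promoters, from 16 genes, 4 (16.7%). It was in 3 of 23 promoters for both Müller glia and reactive glial genes, and in 2 of 20 for lens. Ganglion cell genes had it in 1 of 23 and immediate early genes in 0 of 17. TGCTGA, the core of the sites of Maf factors such as Nrl, was in 4 of the 17 rod promoters (23.5%) and in 19.5% of all. TGANTCA, the AP-1 motif, where N is any base, was in 2 of 17 (11.8%) and in 7.81% of all. Among the lists counted, TGCTGA had its highest share in lens promoters, 12 of 20 (60%). TGANTCA had its highest share in promoters of reactive glial genes, 7 of 23 (30.4%). Motifs were counted on both strands, and the 3 words can overlap. A match here is a word in a window, not a bound site.

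Cone genes differed little between libraries in sum. All 15 were at 1 CPM or more in every library, against 41.8% of all genes. None was past 2-fold, against 4.47% of all genes, and the summed level was 3465, 3564 and 3466 CPM. Opn1sw, the short-wave pigment, was at 577, 763 and 735 CPM, and Opn1mw, the middle-wave pigment, at 381, 334 and 307 CPM. Library 1 was lowest for Opn1sw and highest for Opn1mw. Per kilobase, the ratio of Opn1sw to Opn1mw was 0.926, 1.40 and 1.46 in libraries 1, 2 and 3, so by exon length the order of the 2 pigments was not the same in all libraries. Per kilobase of coding sequence the ratio was 1.70, 2.57 and 2.69, with Opn1sw the higher in all 3, so the order depends on the length used. Mouse cones can hold both pigments, in a ratio that varies across the retina. Arr3, cone arrestin, was at 307, 363 and 309 CPM, and Thrb, the thyroid hormone receptor that drives the middle-wave pigment, at 65.5, 57.4 and 62.5 CPM. Cnga3, the alpha subunit of the cone channel, was the lowest of the list, also per kilobase, at 5.43, 4.24 and 5.46 CPM, below its beta subunit Cngb3 at 52.4, 42.2 and 43.6 CPM, and the order held per kilobase (1.27 ± 0.176 against 9.78 ± 1.17 CPM).

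Rods and cones use related genes for the same steps, and the rod gene was above its cone counterpart per kilobase in all 9 pairs and all 3 libraries. For transducin alpha, Gnat1 over Gnat2, the ratio was 33.7 ± 1.40. For the phosphodiesterase catalytic subunits Pde6a and Pde6c it was 9.79 ± 0.318, and for the inhibitory subunits Pde6g and Pde6h 45.4 ± 5.06. For arrestins, Sag over Arr3, it was 10.05 ± 1.42. The ratio was smallest for Cngb1 over Cngb3, 5.85 ± 0.860, and largest for Cnga1 over Cnga3, 283 ± 19.1. So 1 mixture of cells gave ratios from 5.85 ± 0.860 to 283 ± 19.1, a range far wider than the spread of any pair. Length matters to the size: per kilobase of coding sequence alone, Pde6g over Pde6h was 12.8 and Sag over Arr3 35.9, and the rod gene was again the higher in all 9 pairs. Gnb1 and Slc24a2 are also made by other neurons, so these 2 pairs are not of rods and cones alone. In bulk tissue, fewer cells of a type and less RNA per cell cannot be told apart.

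**Figure D3:**
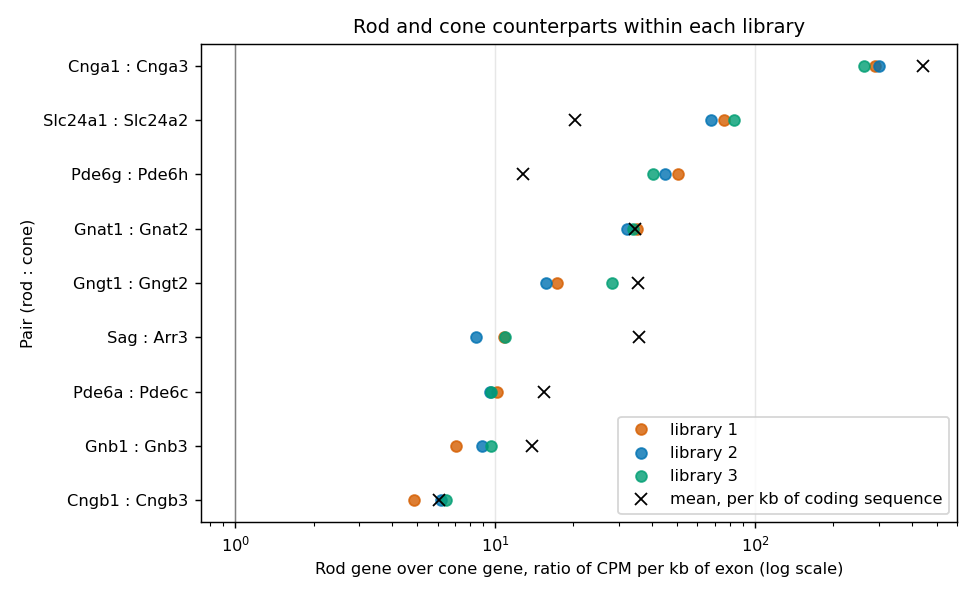
Ratio of the rod gene to its cone counterpart in CPM per kilobase of exon (x axis, log scale) for 9 pairs (y axis), 1 point per library, with the mean ratio per kilobase of coding sequence as a cross. All points lie to the right of 1, from the Cngb1 pair to the Cnga1 pair, and coding length moves the Slc24a1, Pde6g and Sag pairs most.

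Bipolar cells carry photoreceptor signals to the inner retina. All 20 genes of their list were at 1 CPM or more in every library, against 41.8% of all genes. None was past 2-fold, against 4.47% of all genes. Of the 20, 13 were highest in library 2 and 13 lowest in library 3, where 28% and 35.3% of all genes were. The summed level was 1379, 1520 and 1255 CPM. Prkca, the kinase that marks rod bipolar cells, was at 124, 127 and 106 CPM. Of the ON pathway, which reads glutamate release in reverse, Grm6, the receptor, was at 19.6, 25.9 and 20.4 CPM and Trpm1, its channel, at 60.4, 84.1 and 70.8 CPM. Cabp5, a calcium-binding protein of rod and OFF bipolar cells, was at 95.1, 84.2 and 59.4 CPM, lowest in library 3. Scgn, secretagogin, had the list's highest CPM, 251 ± 20.5, and per kilobase Gng13, a G protein gamma subunit of ON bipolar cells, was at 181 ± 34.3 against 155 ± 12.7 CPM for Scgn, which does not separate the 2.

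Horizontal cells modulate photoreceptor output. Their list summed to 449 ± 27.8 CPM, of which Sept4 gave 42.4%. The genes most restricted to these cells were near the 1 CPM threshold: Onecut1, a transcription factor, was at 0.463, 0.737 and 1.03 CPM, Lhx1 at 0.927, 1.04 and 1.03 CPM and Gja10, their gap junction gene, at 0.728, 0.798 and 0.788 CPM. Calb1, calbindin, which amacrine cells also make, was at 72.5, 80.6 and 79.98 CPM. None of the 4 genes with at least 5 CPM was past 2-fold.

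Amacrine cells, the inhibitory interneurons of the inner retina, were lowest in library 1. Their summed level was 1410, 1900 and 1785 CPM, and 17 of 21 genes were lowest in library 1, where 38% of all genes were. GC-adjusted, 17 of 21 were still lowest in library 1, and the summed level was 1442, 1876 and 1770 CPM. The enzymes and carriers of GABA had this order: Gad1 was at 99.1, 147 and 140.4 CPM and Gad2 at 11.98, 21.1 and 17.6 CPM. Slc32a1, the vesicular carrier of GABA and glycine, was at 11.98, 21.7 and 21.6 CPM. The glycine carrier Slc6a9 was at 19.3, 28.1 and 31.05 CPM. In all 4, libraries 2 and 3 stood above library 1, and GC-adjusted Gad1 was at 101, 146 and 140 CPM.

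Of the amacrine list, 3 of 21 genes were past 2-fold, against 4.47% of all genes, namely Penk, Chat and Sst. Penk, the enkephalin precursor, was at 8.07, 37.6 and 17.5 CPM, and Chat, which makes acetylcholine in starburst cells, at 3.71, 9.82 and 9.34 CPM. Sst, somatostatin, was at 3.90, 8.04 and 6.67 CPM. Of the other genes of starburst cells, Slc18a3, the vesicular carrier of acetylcholine, was at 1.13, 4.24 and 3.58 CPM, lowest in library 1 like Chat but under 5 CPM. Slc5a7, the choline carrier, was highest in library 1 as deposited, at 18.7, 17.3 and 14.8 CPM. GC-adjusted, Slc5a7 was at 16.5, 18.6 and 15.8 CPM, highest in library 2 and lowest in library 3. Tac1, a tachykinin precursor, was even at 71.9, 69.8 and 76.3 CPM, and Vip, a peptide of another amacrine type, was highest in library 1 at 57.98, 38.7 and 41.8 CPM. Th, tyrosine hydroxylase of dopaminergic cells, was at 3.71, 5.46 and 2.24 CPM. Leaving out library 1 left Penk alone past 2-fold, and GC-adjusted Penk and Chat were, against 2.99% of all genes.

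Most list genes of retinal ganglion cells, whose axons were crushed, were detected. Of the 28 genes in the list, 26 were at 1 CPM or more in all 3 libraries, against 41.8% of all genes. Some, such as Cd24a, are made by many cells. The summed level was 2018, 2393 and 2318 CPM. Rbpms, an RNA-binding protein that marks the whole class, was at 12.9, 22.9 and 25.3 CPM. Slc17a6, the vesicular glutamate carrier VGLUT2, was at 85.3, 97.2 and 98.7 CPM. Thy1, a surface protein used to label these cells, was at 187, 280.2 and 273 CPM, and Sncg, gamma-synuclein, at 235, 266 and 251 CPM. Rbpms and Thy1 were lowest in library 1, with libraries 2 and 3 close together, and GC-adjusted they were at 13.1, 22.7 and 25.3 CPM and 202, 271 and 263 CPM, whereas Sncg stood within 1.13 times in all.

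The list's transcription factors were low. Pou4f1, Pou4f2 and Pou4f3, POU factors that specify and maintain ganglion cells, were at 17.9 ± 5.90, 7.05 ± 0.284 and 5.02 ± 1.69 CPM. Per kilobase they stood at 3.83 ± 1.26, 2.20 ± 0.0887 and 2.09 ± 0.703 CPM, so Pou4f2 and Pou4f3 did not differ beyond their spread. By library, Pou4f1 was at 11.4, 19.2 and 23.04 CPM and Pou4f2 at 6.82, 7.37 and 6.97 CPM, so the first had its lowest value in library 1 and the second was even. Opn4, the melanopsin of intrinsically light-sensitive ganglion cells, was at 1.52, 4.298 and 5.70 CPM, and Eomes, a factor of the same cells, at 3.71, 7.0 and 8.13 CPM. Atoh7, which starts ganglion cell fate in development, was at 0.529, 1.41 and 0.546 CPM.

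Neurofilament and other axonal genes did not vary to the same degree. Nefl, the light chain, was at 405, 467 and 430 CPM and Nefh, the heavy chain, at 70.5, 98.7 and 98.9 CPM, while Nefm, the medium chain, was at 26.8, 61.5 and 63.6 CPM. The ratio of Nefl to Nefm per kilobase was 25.9, 13 and 11.6 in libraries 1, 2 and 3, and that of Nefl to Nefh 6.79, 5.59 and 5.14. From GC-adjusted levels, Nefl to Nefm was 22.8, 13.6 and 12.5, and Nefl to Nefh was 5.72, 6.05 and 5.61, where library 1 no longer stood apart. Tubb3, a neuronal tubulin, was at 71.02, 130.3 and 124 CPM, and Stmn2, a growth-associated tubulin binder, at 171, 167 and 154 CPM. As deposited, Nefm and Tubb3 were low in library 1, and Stmn2 was not. With the GC adjustment, Stmn2 was at 156, 175 and 163 CPM, lowest in library 1 like Nefl, Nefm, Nefh and Tubb3. GC-adjusted, the highest library of Tubb3 was 1.45 times its lowest, against 1.83 before. The GC content of the transcripts was 55.7% for Nefm, 58.02% for Tubb3, 48.8% for Nefl and 43.6% for Stmn2.

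Of 24 ganglion cell genes with at least 5 CPM, 6 were past 2-fold, against 4.47% of all genes: Isl2, Eomes, Cd24a, Nefm, Pou4f1 and Pou4f3. Cd24a, a surface protein that many cells make, was highest in library 1, at 58.1, 25.4 and 29.9 CPM, and the other 5 were lowest there. GC-adjusted, 2 of 24 were past 2-fold, Pou4f1 (11.3, 19.2 and 23.4 CPM) and Cd24a (57.4, 25.5 and 30.4 CPM), against 2.99% of all genes, and Nefm was just under it, at 1.99 times. Without library 1, none of 25 was past 2-fold. The direction did not go away with the adjustment: 16 of 24 genes were lowest in library 1 as deposited and 18 of 24 after it, against 38% and 36.4% of all genes. The GC-adjusted summed level was 2040, 2373 and 2312 CPM. The part that the lens and GC differences of library 1 have in this was not tested beyond that adjustment.

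**Figure D4:**
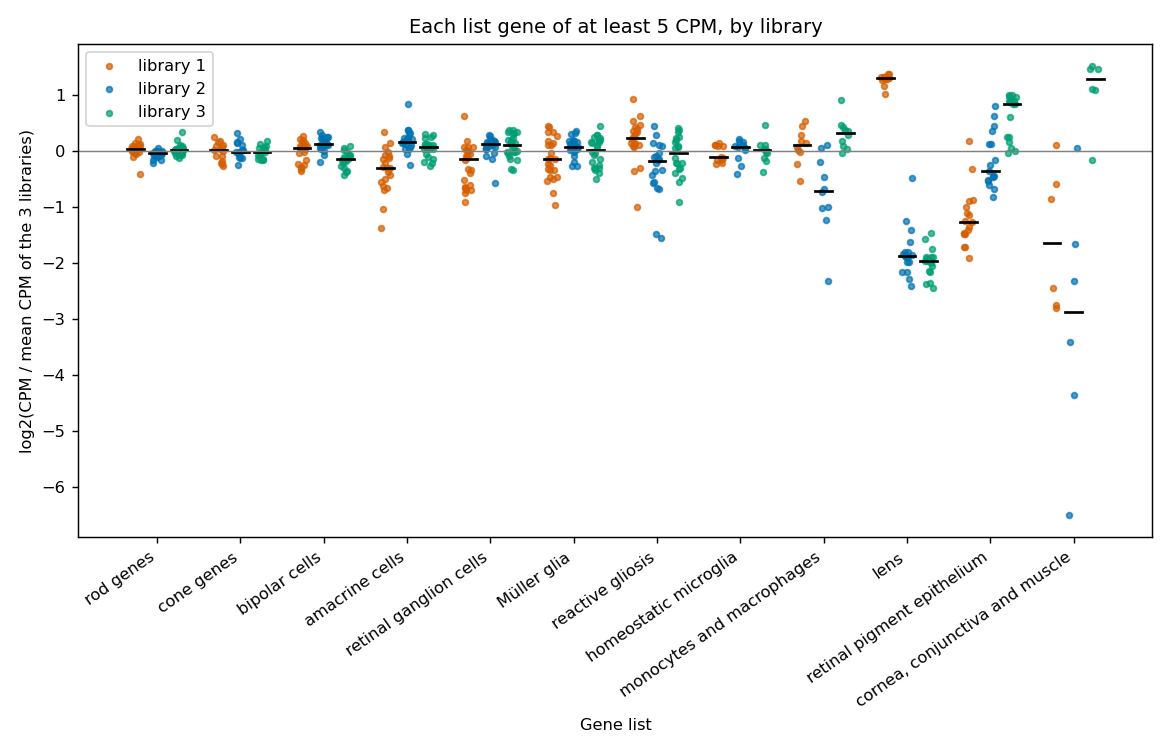
Log2 ratio of CPM in each library to the mean of the 3 libraries (y axis) for every gene of 12 lists with a mean of at least 5 CPM (x axis), 1 point per gene and library, with the median as a black line. Rod and cone genes lie close to 0, amacrine genes are shifted down in library 1, and lens genes lie above 0 in library 1 and below 0 in the other two.

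Müller glia are the radial support cells of the retina. Of 25 genes in their list, 24 were at 1 CPM or more, against 41.8% of all genes, and Trdn had no count. Their summed level was 6068, 6857 and 6150 CPM. Glul, glutamine synthetase, which clears glutamate, was at 373, 809 and 704 CPM, and Slc6a13, a carrier of GABA and taurine, at 11.9, 26.1 and 31.5 CPM. These 2 of 24 genes were past 2-fold, against 4.47% of all genes, both lowest in library 1, and both remained so GC-adjusted, with Glul at 378, 802 and 702 CPM. Rlbp1, which carries visual chromophore in Müller glia and pigment epithelium, was at 458, 631 and 643 CPM. Apoe, a lipid carrier, was at 316, 559.6 and 468 CPM.

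Some other Müller glia genes were highest in library 1, so the class did not shift as 1. Vim, the intermediate filament vimentin, which lens also makes, was at 347, 226 and 204 CPM, and Aqp4, the water channel, at 175, 149 and 111 CPM. Slc1a3, the glutamate carrier GLAST, was at 153, 158 and 116 CPM, and Abca8a, a lipid transporter, at 249, 203 and 140.1 CPM. For Vim, Aqp4 and Abca8a, library 1 was highest and library 3 lowest. Clu, clusterin, a secreted chaperone, was at 1423, 1380 and 1156 CPM, and Car2, carbonic anhydrase, at 1066, 1148 and 1076 CPM. Per kilobase, Car2 stood at 453 ± 18.5 and Clu at 384 ± 41.7 CPM. Of 24 genes, 15 were lowest in library 1 as deposited and 14 GC-adjusted, against 38% and 36.4% of all genes.

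Astrocytes lie in the nerve fibre layer. Of the 9 genes in their list, 8 were at 1 CPM or more in all libraries, against 41.8% of all genes. Slc1a2, at 175 ± 25.7 CPM, gave 53.7% of the list's sum. Slc14a1, S100b and Aldh1l1 were at 30.6 ± 9.48, 18.4 ± 5.21 and 9.61 ± 1.19 CPM. Pax2, the defining transcription factor of astrocytes, was at 0.0662, 0.184 and 0.121 CPM, at or under the level of 3 counts. Gfap, the filament that astrocytes hold at rest and Müller glia add after injury, was at 42.5, 32.9 and 57.6 CPM. Gja1, their gap junction protein connexin 43, was at 12.5, 46.7 and 32.8 CPM, the 1 of 8 genes past 2-fold, and GC-adjusted at 11.7, 47.97 and 34.3 CPM. Oligodendrocyte genes were low: Olig1 and Olig2 had no count, Mobp was at 0, 0.0614 and 0.0606 CPM, and Mbp, myelin basic protein, at 10.3, 12.4 and 14.9 CPM. The mouse retina holds no myelin, and the nerve behind it does.

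Endothelial genes were found, most at a low level. Pecam1, a junction protein of the whole class, was at 4.04, 5.77 and 3.58 CPM, and Cdh5, VE-cadherin, at 0.860, 1.35 and 0.667 CPM. Cldn5, the tight junction claudin of the blood-retina barrier, was at 1.72, 4.24 and 3.33 CPM. Slc2a1, the glucose carrier GLUT1 of barrier endothelium and also of pigment epithelium, was at 116, 152 and 187 CPM, in the order of the pigment epithelium genes, and made 48.6% of the list's sum. Flt1, a receptor of vascular growth factor, was at 8.27, 18.4 and 13.6 CPM, the 1 of 8 past 2-fold, and GC-adjusted at 8.17, 18.4 and 13.9 CPM. The adhesion molecules differed in level. Vcam1 was at 30.4, 26.96 and 22.4 CPM and Icam1 at 0.529, 0.614 and 0.485 CPM, while Sele, of inflamed vessels, had no count. The surface proteins Ly6a and Ly6c1 were at 29.1, 21.7 and 41.96 CPM and 27.5, 23.03 and 18.4 CPM.

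Pericytes wrap the capillaries. Their list is dominated by Vtn, vitronectin, which photoreceptors also make, at 1506, 1373 and 1287 CPM or 95.3% of the sum. Without Vtn, the list summed to 70.1, 71.7 and 63.4 CPM. Pdgfrb, the receptor that defines pericytes, was at 1.59, 2.39 and 1.58 CPM, and Rgs5, a signalling regulator of theirs, at 47.7, 46.8 and 39.4 CPM. Acta2, smooth muscle actin, was at 11.9, 15.04 and 11.6 CPM. Fibroblast genes were low, with Col1a1 at 1.26, 0.368 and 2.12 CPM. Dcn, decorin, was at 18.1, 6.69 and 11.3 CPM and Ogn, osteoglycin, at 6.95, 17.9 and 10.4 CPM. Haemoglobin of red cells, Hbb-bs, was at 49.5, 32.5 and 39.5 CPM.

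Genes of resident microglia were found in all libraries. None of 11 with at least 5 CPM was past 2-fold, which is near the 4.47% of all genes, and the summed level was 339 ± 13.4 CPM, of which Sparc, made by many cells, gave 43.2%. Without Sparc, the list summed to 197, 189.9 and 191 CPM. P2ry12, the purine receptor of resting microglia, was at 9.20, 11.7 and 10.1 CPM, and Tmem119, a surface marker, at 2.91, 2.89 and 2.67 CPM. Cx3cr1, the fractalkine receptor, was at 2.65, 2.82 and 3.52 CPM. The complement genes C1qa, C1qb and C1qc, which microglia make, were at 15.9 ± 3.29, 31.1 ± 2.24 and 20.3 ± 2.11 CPM.

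Genes of monocytes and macrophages were lowest in library 2. Of 10 genes with at least 5 CPM, 8 were lowest in library 2, where 26.7% of all genes were, and 6 were past 2-fold, against 4.47% of all genes: Plac8, Itgam, Arg1, Cd68, Cd14 and Cd74. Arg1, an enzyme of repair-type macrophages, was at 17.4, 2.39 and 16.1 CPM, and Cd68, a lysosomal protein of phagocytes, at 8.47, 3.87 and 6.37 CPM. Itgam, the integrin CD11b, was at 9.73, 3.93 and 10.2 CPM, and Cd14, a receptor for bacterial products, at 9.60, 5.22 and 11.2 CPM. All 4 were lowest in library 2. Without library 2, Plac8 was the 1 gene of 10 past 2-fold. The low place of library 2 was not particular to this list. Library 2 was also lowest for 8 of 11 interferon-stimulated genes, 10 of 20 reactive glial genes and 13 of 24 rod genes. It was lowest for 1 of 20 bipolar and 2 of 21 amacrine cell genes, against 26.7% of all genes.

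The genes of newly arrived monocytes were low. Ly6c2, of inflammatory monocytes, was at 3.90, 0.491 and 2.67 CPM, and Ccr2, the receptor that recruits them, at 4.83, 1.35 and 2.36 CPM. Ccl2, its ligand, was at 3.51, 1.54 and 2.24 CPM. Lyz2, lysozyme of all myeloid cells, was at 36.1, 31.2 and 40.4 CPM, with its highest library 1.30 times its lowest. Of the surface keratins, Krt5, Krt14, Krt12, Krt15, Krt17, Krt19, Krt16, Krt6a and Krt6b were lowest in library 2 and Krt4 and Krt13 in library 1. The part of other tissue in the myeloid values was not tested.

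Genes of granulocytes and lymphocytes were low, and several had no count. S100a9, a calcium-binding protein of neutrophils, was at 4.77, 1.41 and 8.67 CPM, and S100a8, its partner, at 2.71, 1.54 and 3.52 CPM. Ltf, lactoferrin, which glands of the eye surface also make, was at 5.96, 2.21 and 13.04 CPM. The granule genes Elane and Mpo had no count, and Ly6g, the neutrophil surface marker, was at 0.0662, 0 and 0.0606 CPM. Ppbp, a platelet chemokine outside the lists, was at 18.1, 0.246 and 27.4 CPM, with 4 counts in library 2. Of 14 lymphocyte and mast cell genes, 1 was at 1 CPM or more in all libraries, against 41.8% of all genes. That was Ighm, at 1.59, 1.72 and 1.58 CPM. Cd3e of T cells was at 0.0662, 0 and 0.182 CPM, and Ms4a1 of B cells had no count.

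Interferon-stimulated genes had 409.6, 289 and 331 CPM in all, of which B2m, a part of MHC class I, gave 54.9%. Without it the sum was 169, 144 and 150.5 CPM. Ifit3, an antiviral effector, was at 28.9, 31.1 and 23.2 CPM, and Irf7, the factor that drives interferon, at 21.5, 18.2 and 19.5 CPM. Isg15, a ubiquitin-like modifier, was at 4.96, 4.11 and 4.31 CPM. Irf9, part of the complex that reads interferon signals, was at 12.1, 6.02 and 11.2 CPM, the 1 of 11 genes past 2-fold.

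The injury genes of axons were read at day 1 without an uncrushed reference. Of 26 genes, 22 were at 1 CPM or more in all libraries, against 41.8% of all genes. The summed level was even at 466, 474 and 481 CPM. Atf3, a factor induced in injured neurons, was at 9.93, 9.21 and 7.52 CPM, and Jun, its partner, at 15.6, 19.5 and 23.4 CPM. Jun was lowest in library 1 and Atf3 highest there. Ddit3, or CHOP, of the integrated stress response, was at 78.6, 67.5 and 57.97 CPM. The kinases that relay axon damage, Map3k12 (DLK) and Map3k13 (LZK), were at 23.6, 31.8 and 32.8 CPM and 9.33, 8.47 and 11.6 CPM.

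Growth-associated genes spanned a wide range. Gap43, a growth cone protein, was at 55.9, 61.5 and 57.4 CPM and varied 1.10 times. Sox11, a factor tied to axon regrowth, was at 1.85, 2.09 and 2.001 CPM, and Gal, the peptide galanin, at 1.85, 1.47 and 1.70 CPM. Ecel1, an endopeptidase induced by nerve injury, was at 0.199, 0.553 and 0.0606 CPM, and Hrk, a pro-death protein, at 0, 0.184 and 0.243 CPM, both near or under the level of 3 counts. Sprr1a, a growth protein in neurons and a cornified envelope protein in epithelium, was at 0.199, 0.0614 and 6.43 CPM, under the level at which spread is read here.

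The 2 genes past 2-fold in this list of 15 tested were Fgf2 and Lgals3, against 4.47% of all genes. GC-adjusted, 2 of 15 were again past it, against 2.99% of all genes. Fgf2, a trophic factor made by Müller glia, was at 45.01, 14.7 and 30.2 CPM. Lgals3, a galectin of phagocytes and epithelium, was at 17.5, 10.99 and 24.7 CPM. Library 2 was lowest for both. Fgf2 was highest in library 1 and Lgals3 in library 3.

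Immediate early genes, which answer a stimulus within minutes, were low. Fos was at 11.5, 20.1 and 15.4 CPM, Egr1 at 6.09, 14.4 and 12.4 CPM and Junb at 21.1, 18.6 and 25.6 CPM, while Arc, a synaptic gene, was at 0.596, 0.737 and 1.21 CPM. Of the 8 genes at 5 CPM or more, 6 were lowest in library 1 and 5 GC-adjusted, against 38% and 36.4% of all genes. Egr1 was the 1 of 8 past 2-fold in both, against 4.47% and 2.99% of all genes. The median GC content of these 8 was 56.0%, against 49.6% for all genes at that level. Btg2, an antiproliferative gene, gave 38.2% of the sum.

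Of the reactive glial genes, 7 of 20 were past 2-fold between libraries, against 4.47% of all genes. Edn2, endothelin 2, which stressed photoreceptors release, was at 14.7, 3.62 and 12.1 CPM, and Hspb1, a small heat shock protein, at 21.05, 3.75 and 8.43 CPM. Both were lowest in library 2. Serpina3n, a secreted protease inhibitor of reactive glia, was at 143, 176 and 68.7 CPM, lowest in library 3. Cebpd, an acute-phase factor, was at 50.7, 24.4 and 40.8 CPM. The others past 2-fold were Gbp2, Fgfr1 and Mt2. GC-adjusted, 6 of 20 were past 2-fold, against 2.99% of all genes, and Gbp2, at 1.87 times, was not. Hspb1 is also made by lens and surface epithelium, whose genes were highest in libraries 1 and 3, and their part in it was not tested.

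Other genes of the reactive list belong to the acute phase and to cytokine signalling. Lcn2, lipocalin 2, an acute-phase protein, was at 75.5, 63.2 and 56.03 CPM. Stat3, which transduces cytokines of the IL-6 family, was at 42.8, 31.6 and 47.5 CPM, its brake Socs3 at 5.23, 3.38 and 5.52 CPM and the receptor subunit Osmr at 30.3, 16.3 and 24.98 CPM. Of their ligands, Il6 was at 0, 0.123 and 0.182 CPM, Lif at 0.596, 0.307 and 0.243 CPM and Cntf at 33.6, 19.8 and 21.6 CPM. Cp, ceruloplasmin, an iron oxidase, was at 466, 339 and 292 CPM. Of 20 reactive genes, 10 were lowest in library 2 and 13 highest in library 1, against 26.7% and 42.5% of all genes. GC-adjusted, 10 were lowest in library 2 and 12 highest in library 1, against 3234 and 4150 of all 11151 genes.

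**Figure D5:**
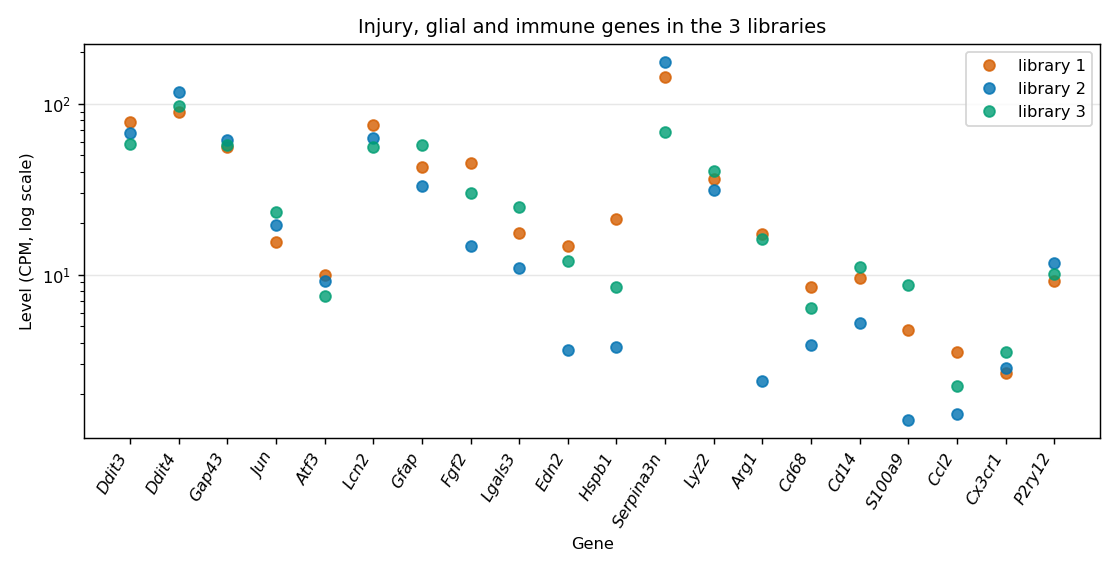
CPM (y axis, log scale) of 20 injury, glial and immune genes (x axis) in libraries 1 (orange), 2 (blue) and 3 (green). Gap43, Atf3 and P2ry12 have their 3 points close together, while library 2 is lowest for, among others, Fgf2, Edn2, Hspb1, Arg1, Cd68 and Cd14.

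None of 13 clock genes was past 2-fold, which is near the 4.47% of all genes. Arntl (Bmal1), a core activator, was at 106, 105 and 104 CPM. Nr1d1, its repressor, was at 27, 35.6 and 43.5 CPM, and Dbp, a clock output factor, at 57.8, 75.3 and 76.6 CPM. None of 13 genes of heat shock and the unfolded protein response was past 2-fold as deposited. GC-adjusted, 1 was, Nupr1, a stress-induced chromatin protein, at 64.4, 33.1 and 31.5 CPM and highest in library 1, against 2.99% of all genes. Hspa5, the chaperone BiP, was at 633, 494 and 488 CPM and Atf4, the factor of the integrated stress response, at 529, 534 and 457 CPM, while Hspa1a, which heat shock induces, was at 23.7, 26.8 and 24.4 CPM. Of cell cycle genes, Mki67, a proliferation marker, was at 0.662, 0.307 and 2.12 CPM and Top2a at 1.32, 1.29 and 2.36 CPM, and Pcna, a DNA clamp also used in repair, at 357, 279.6 and 288 CPM, which made 88.8% of the list. The glycolytic genes Gapdh, Eno1, Aldoa, Pkm and Ldha were among the 20 genes with the highest mean CPM, with Gapdh at 10719, 10814 and 8986 CPM and Ldha, lactate dehydrogenase A, at 3796, 3405 and 3071 CPM.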

How the data were processed

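Per the labels' protocols, Trizol was used for RNA and a NEBNext Ultra kit for the libraries. FastQC 0.11.8, HISAT2 2.0.5, featureCounts 1.5.0-p3 and limma are named, per the submitters' processing notes. The build and the strand setting are not given in the sources used here. Genes that overlap an antisense neighbour are therefore uncertain, and crystallin, haemoglobin and opsin paralogs may share reads. The authors deposited whole-number counts per gene, which were used as they stand. The 3 other retina columns and the pericyte table were not used here. Counts were scaled in R 4.3.3 with edgeR 4.0.16 (TMM over the 3 libraries) and tabulated in Python 3.11.15. The libraries differed by more than sampling noise, with chi-squared per degree of freedom between 11.2 and 29.0 for the 3 pairs, so no column is a copy. Union exon length and GC content came from GENCODE M21 by Ensembl identifier, for 99.8% of genes in the case of length. The sources used here name no molecular identifiers, so reads can be copies of 1 molecule and a floor of 3 counts covers counting error only.

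No test between groups was made. A few genes enter the sums and counts of their lists but are not reported here. The 28 lists hold 484 genes, and the members and lists were chosen with earlier results of these data known, so nothing here is independent support for a pattern already seen. Named genes are list genes, the 20 highest by CPM, the 20 highest per kilobase, and the 20 outside the lists with the largest ratio between libraries among genes of at least 5 CPM, leaving out unnamed gene models. The GC adjustment, the coding length and the sums without a list's leading gene were chosen after seeing the data. Alternatives were other scalings, other thresholds and leaving out each library.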

Additional observations from a re-analysis of the deposited data

How the results depend on the processing

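No paired analysis was possible because 1 group is described and no test was made. Total counts without further scaling, median-of-ratios factors and totals without lens genes moved no list sum and no named gene by more than 1 SD. GC adjustment moved no list sum by more than 1 SD. The values compared are means over the 3 libraries, which such rescaling changes little by construction. Their staying in place therefore says nothing on the differences between libraries. The number of genes past 2-fold was 554, 492, 501 and 333 with these settings in turn, against 498. That number depended on the thresholds, which by construction admit more or fewer genes: 1434 with a mean of at least 1 CPM, 154 with at least 20 CPM and 1694 with a ratio of 1.5. Leaving out 1 library in turn gave between 159 and 397 genes, the lowest without library 1 and 248 without library 3; 2 libraries can differ in fewer ways than 3. Leaving out 1 library gave a coefficient of variation between 0.156 and 0.225, the lowest without library 1. The SD comes from the same 3 libraries, so a move of under 1 SD when 1 is left out says little about stability: the lens sum was 3199 CPM and 827 CPM without library 1, and the cornea, conjunctiva and muscle sum was 176 CPM and 35.6 CPM without library 3. Leaving out 1 library gave cone sums between 3436 and 3570 CPM, axon injury sums between 467 and 485 CPM, and fibroblast sums between 67.0 and 70.7 CPM. The number of genes at 1 CPM or more in all libraries was 14560 at 0.5 CPM and 14250 on the mean. With 3 libraries, genes under 5 CPM, such as all lymphocyte and most granulocyte markers and 4 of 8 horizontal cell genes, allow no statement on spread.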
